A study of Mus musculus with 6 samples.

Results

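Imprinted genes are genes that can be read from 1 parental copy only. Here 41 genes listed as imprinted were followed in transformed mouse blood progenitor cells given an inhibitor of the histone methyltransferase G9a. Whether each is read from 1 copy in these cells was not measured. The genes were chosen by name, and a gene was counted where the array annotation gave its symbol alone to a probe set, which held for 34 of the 41, among 19937 genes measured in all. Of the remaining 7, Snrpn, Ube3a and Gnas share their probe sets with other symbols, and H19, Kcnq1ot1, Zrsr1 and Slc22a3 were not analysed here. The cells were mouse haematopoietic stem and progenitor cells transformed by HoxA9 and Meis1 (called A9M in the labels), cultured in DMEM with fetal serum and the cytokines IL3, IL6 and SCF. They had been treated for 5 days with UNC0638, a small molecule that inhibits G9a and its partner GLP (3 arrays), or with DMSO, its solvent (3 arrays). The study set out to find expression that depends on the enzyme activity of G9a. Both groups carry the transforming genes, the dose is not given in the labels, and nothing there says whether the arrays of a group came from separate cultures. The p-values therefore reflect only how these samples vary, and that variation may be technical.

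At an imprinted locus, DNA methylation laid down in egg or sperm marks a control region, and the genes around it are then read from the maternal or the paternal copy. Long noncoding RNAs such as Airn and Kcnq1ot1, and histone marks that include the H3K9 methylation made by G9a, keep part of the neighbouring genes silent on 1 copy, best known from the mouse placenta. Many imprinted genes act in fetal and placental growth and are switched off in most adult cells. The arrays measure the RNA of both copies together and cannot tell the parental alleles apart.

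None of the 34 imprinted genes passed the test after UNC0638, in either direction. The test was limma on log2(intensity + 16) over all genes, with Benjamini-Hochberg adjustment and a threshold of 0.05, and it called 0 of 34, against 0.672% of all genes tested. The lowest adjusted p among the 34 was 0.17. In RNA of whole cultures, fewer cells that use a gene and less of its RNA per cell cannot be told apart. An unadjusted limma p under 0.05 was reached by 2 of 34, Dlk1 (lower) and Copg2 (higher), against 12.7% of all genes. The median log2 difference, UNC0638 minus DMSO, was 0.029 over the 34 genes and 0.012 over all genes. Differences ran from -0.40 for Dlk1 to 0.33 for Copg2, and 21 were above 0 and 13 below. Over all genes, 10751 were above 0 and 9186 below. Each gene's 95% interval lay within 1 log2 unit of 0, a change of 2-fold on this scale, and 31 of the 34 lay within 0.5. Since the added 16 shrinks the differences of dim probe sets, the intervals were also taken with 1 added, and all 34 again lay within 1 log2 unit, the highest limit being 0.68 for Copg2 and the lowest -0.74 for Dlk1.

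**Figure D1:**
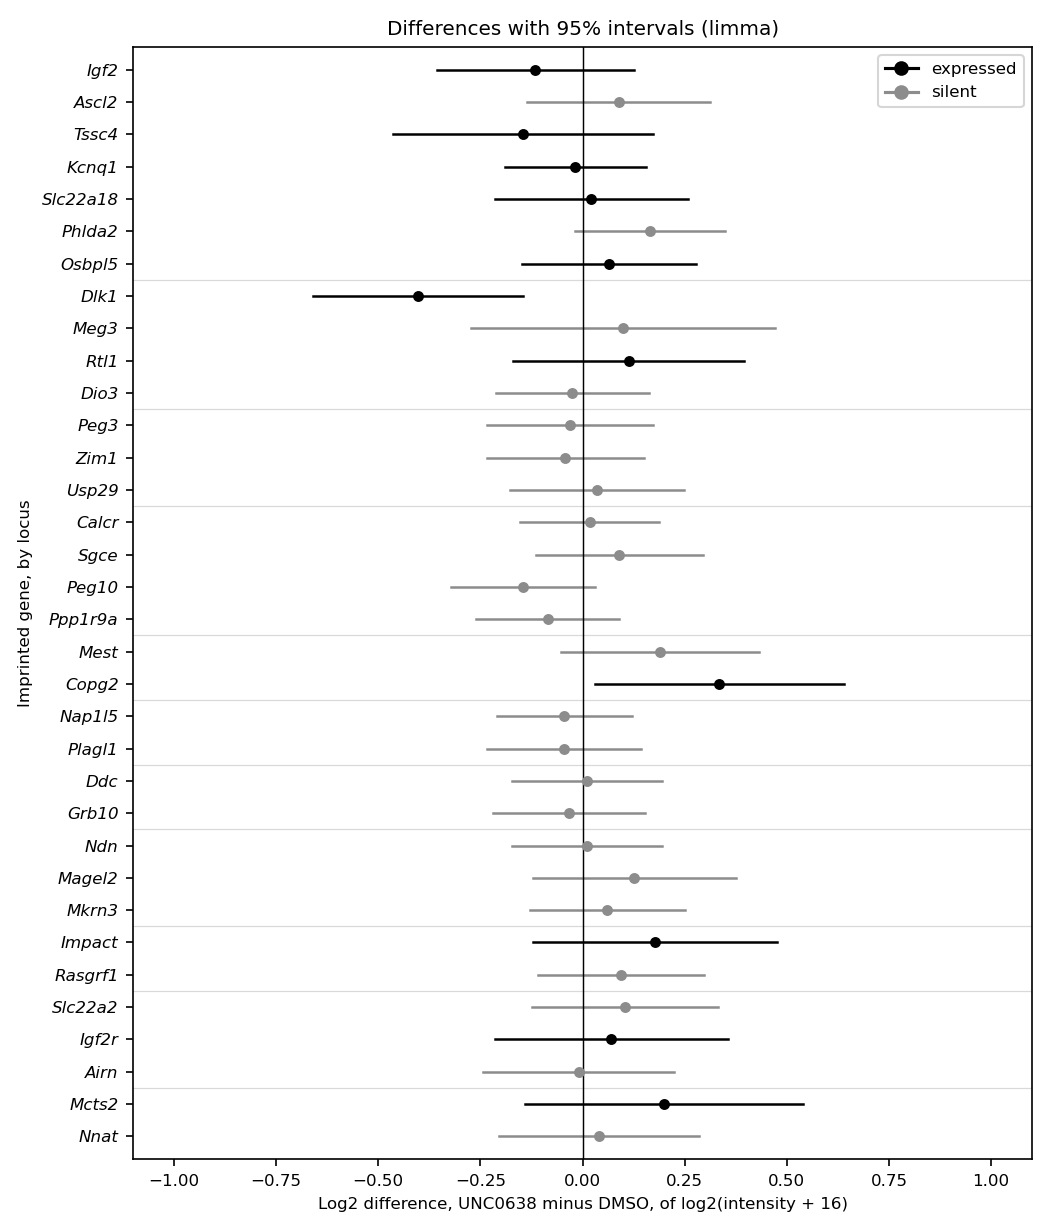
Log2 difference (UNC0638 minus DMSO) of each of the 34 imprinted genes with its 95% interval from limma, ordered by locus, black for expressed and grey for silent genes. Intervals of 2 genes, Dlk1 below and Copg2 above, do not reach 0, and neither gene passed the adjusted threshold.

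The imprinted genes were sorted into expressed and silent by setting them against the olfactory receptor genes, a large family that blood cells are not known to use. A gene was called silent where its mean intensity over the 6 arrays was at or below the 95th percentile of 1027 olfactory receptor genes, an intensity of 45.3. By this measure 23 of the 34 were silent and 11 expressed, and of all genes tested 7899 were silent and 12038 expressed. Igf2, at 45.6, was the gene just above the line and Meg3, at 41.2, the gene just below it. Probe sets differ in brightness for the same amount of RNA, so the line sorts genes and does not measure one against another. With the 99th percentile (78.3) or the median of all genes (64.7) as the line, 28 would be silent. The 6 that stayed expressed under either line were Impact, Copg2, Mcts2, Dlk1, Tssc4 and Igf2r.

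**Figure D2:**
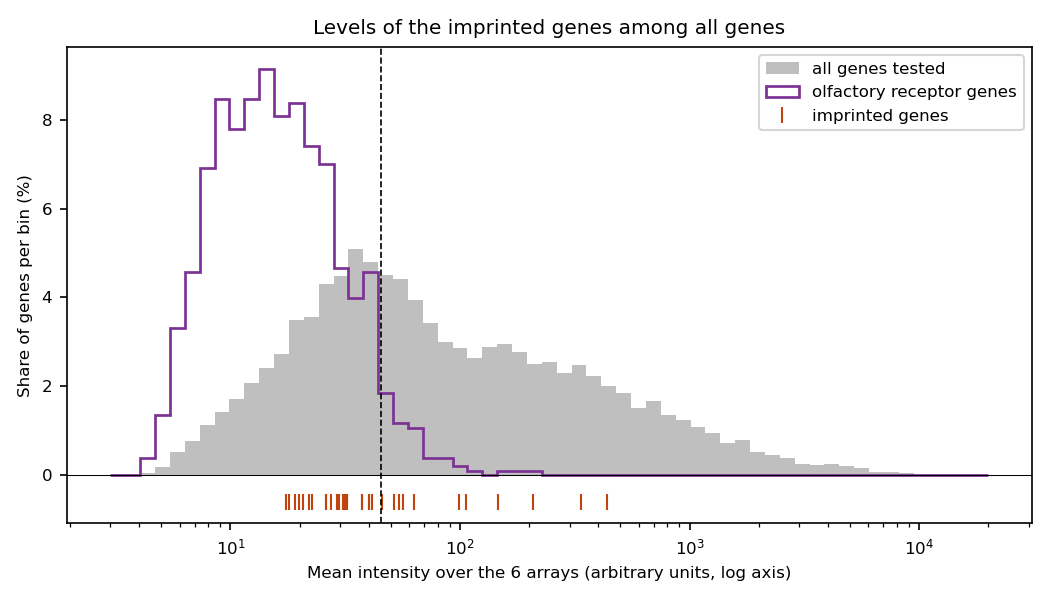
Mean intensity over the 6 arrays (log axis) of all genes tested (grey), of 1027 olfactory receptor genes (purple outline) and of the 34 imprinted genes (ticks under the axis), with the share of genes in each bin. The dashed line is the olfactory receptor 95th percentile of 45.3, and 23 of the 34 ticks lie at or left of it.

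Promoter sequences were taken from RefSeq for the GRCm38.p6 build, 250 bases before to 50 after each start, and were found for 29 of the 34 genes. The 5 shown belong to the genes with the largest differences, Dlk1 and Copg2, to the silent partner of Copg2, Mest, to the expressed paternally read gene Mcts2 and to a silent gene rich in the motif searched, Nap1l5. Capitals mark the letters TGCCGC or, on the other strand, GCGGCA, the core that the imprint-keeping zinc finger protein ZFP57 is known to bind when methylated. Each is printed 5′ to 3′ in the direction of the gene.
Dlk1, chr12:109452573-109452872, plus strand: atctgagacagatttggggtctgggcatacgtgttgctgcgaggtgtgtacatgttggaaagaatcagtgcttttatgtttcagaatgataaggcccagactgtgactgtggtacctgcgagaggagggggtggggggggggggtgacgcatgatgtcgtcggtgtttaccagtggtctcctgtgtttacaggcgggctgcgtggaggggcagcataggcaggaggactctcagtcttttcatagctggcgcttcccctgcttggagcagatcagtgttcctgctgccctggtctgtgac
Copg2, chr6:30896745-30897044, minus strand: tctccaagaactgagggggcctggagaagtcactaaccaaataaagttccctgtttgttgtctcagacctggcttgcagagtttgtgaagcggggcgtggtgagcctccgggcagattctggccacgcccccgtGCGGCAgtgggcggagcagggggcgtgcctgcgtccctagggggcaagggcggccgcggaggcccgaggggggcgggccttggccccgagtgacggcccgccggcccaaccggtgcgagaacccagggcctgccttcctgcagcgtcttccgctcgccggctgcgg
Mest, chr6:30737800-30738099, plus strand: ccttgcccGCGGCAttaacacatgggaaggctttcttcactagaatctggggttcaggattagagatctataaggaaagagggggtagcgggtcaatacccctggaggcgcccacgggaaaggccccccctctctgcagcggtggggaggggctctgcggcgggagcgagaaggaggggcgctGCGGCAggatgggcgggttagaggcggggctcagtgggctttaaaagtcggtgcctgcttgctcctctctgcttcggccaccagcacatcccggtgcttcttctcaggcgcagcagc
Mcts2, chr2:152686898-152687197, plus strand: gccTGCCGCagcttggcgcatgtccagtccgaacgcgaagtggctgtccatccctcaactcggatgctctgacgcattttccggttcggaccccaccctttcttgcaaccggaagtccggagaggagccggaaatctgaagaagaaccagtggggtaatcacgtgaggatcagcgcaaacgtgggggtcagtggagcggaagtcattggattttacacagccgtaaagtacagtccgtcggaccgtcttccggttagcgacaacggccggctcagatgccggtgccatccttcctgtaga
Nap1l5, chr6:58907077-58907376, minus strand: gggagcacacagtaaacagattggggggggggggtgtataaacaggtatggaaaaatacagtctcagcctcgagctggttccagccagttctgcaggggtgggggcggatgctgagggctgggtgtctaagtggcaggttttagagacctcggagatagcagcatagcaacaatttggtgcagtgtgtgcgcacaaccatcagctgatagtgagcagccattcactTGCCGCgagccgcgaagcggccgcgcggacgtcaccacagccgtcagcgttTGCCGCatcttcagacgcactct

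The Dlk1 window held 9 CpG dinucleotides and none of the motif, and the Copg2 window 25 CpG and 1 match. The windows of Mest and Nap1l5 held 17 CpG and 2 matches each, and that of Mcts2 25 CpG and 1 match. Taking for each gene its window with the most CpG, the median was 20 CpG over the 29 imprinted genes and 8 over 27025 genes. These 27025 are all genes with a RefSeq window, measured on the arrays or not, and differ from the 19937 genes tested. The motif was in 12 of these 29 windows (41.4%), against 12.2% of those of the 27025 genes, 1 window per gene. CpG-rich windows hold such letters more often. Among windows with an observed-to-expected CpG ratio over 0.6 the shares were 10 of 20 imprinted genes and 24.6% of 10332 genes. The motif was in 3 of 8 windows of expressed genes and in 9 of 21 of silent genes. A match is only a run of letters in this window, and no methylation or binding was measured.

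**Figure D3:**
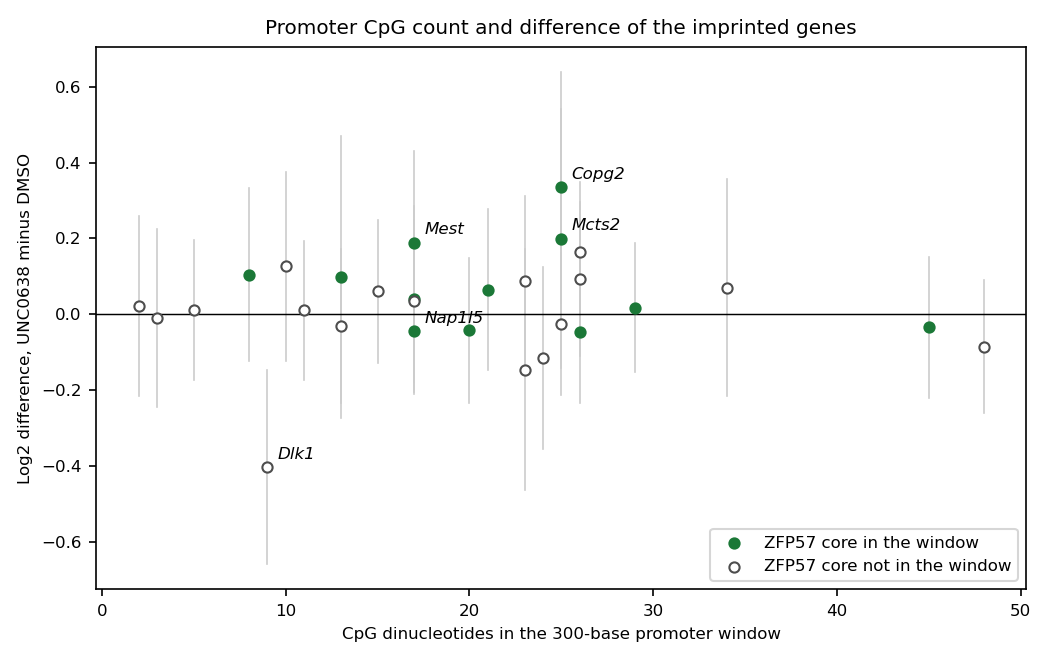
CpG dinucleotides in the promoter window (x axis) against the log2 difference, UNC0638 minus DMSO, with its 95% interval (y axis) for the 29 imprinted genes with a window, filled where the ZFP57 core was found. Dlk1, with 9 CpG and no match, lies lowest at -0.40, and Copg2, with 25 CpG and 1 match, highest at 0.33.

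Dlk1 had the largest difference of the 34. It encodes a transmembrane protein with EGF-like repeats, is read from the paternal copy and is known as a marker of immature cells. Its intensity was 119.6, 141 and 111 on the UNC0638 arrays, against 158, 193 and 156 on the DMSO arrays (probe set 10398319). All 3 UNC0638 arrays lay below all 3 DMSO arrays. The means were 124 ± 15.2 with UNC0638 and 169 ± 20.8 with DMSO (SD, n = 3 each), a ratio of 0.733. The log2 difference was -0.40 (SE 0.11, 95% interval -0.66 to -0.15), with an unadjusted p of 0.00646 and an adjusted p of 0.17 from limma. Over the alternatives tried, its adjusted p from limma lay between 0.116 and 0.378.

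The 3 other measured genes of the Dlk1-Dio3 locus had overlapping groups. Meg3, a noncoding RNA of the maternal copy, was silent by the line above, with 39.1, 61.3 and 31.0 on the UNC0638 arrays and 36.6, 39.1 and 40.3 on the DMSO arrays. UNC0638 arrays 2 and 3 held its highest and its lowest value, so the groups overlap. Its log2 difference was 0.10 with an interval of -0.27 to 0.47, and it was -0.10 without UNC0638 2. Rtl1, a gene derived from a retrotransposon and needed in the placenta, had 49.8, 51.8 and 68.9 with UNC0638 and 42.9, 55.4 and 55.2 with DMSO (log2 difference 0.11, interval -0.17 to 0.40). Dio3, the deiodinase that inactivates thyroid hormone, was among the dim probe sets at 19.6 ± 1.07 with UNC0638 and 20.3 ± 2.46 with DMSO (SD, n = 3 each), a log2 difference of -0.03.

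Copg2 had the largest positive difference. It encodes a subunit of the COPI coat of transport vesicles, lies beside Mest on chromosome 6 and is the maternally read partner of that pair. Its intensity was 348, 319 and 472 on the UNC0638 arrays, against 288, 294 and 300.2 on the DMSO arrays (probe set 10543737). The groups did not overlap, and UNC0638 3 stood well above the other 5 arrays. The means were 380.0 ± 81.1 with UNC0638 and 294 ± 6.28 with DMSO (SD, n = 3 each). The log2 difference was 0.33 (SE 0.13, interval 0.03 to 0.64, adjusted p = 0.343 from limma). It was 0.17 without UNC0638 3, smaller by over 1.5 times. Mest, the paternally read partner, encodes a protein with a hydrolase fold and was silent here, with 32.0, 29.4 and 42.4 on the UNC0638 arrays and 30.1, 27.3 and 27.0 on the DMSO arrays. UNC0638 3 was its highest array too, and the groups overlapped. Its log2 difference of 0.19 (interval -0.05 to 0.43) had an adjusted p of 0.534 from limma, and the difference was 0.081 without UNC0638 3.

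Impact, an inhibitor of the translation-controlling kinase GCN2, was expressed, with 388, 475 and 534 on the UNC0638 arrays and 382, 466 and 378 on the DMSO arrays. The groups overlapped, and the log2 difference was 0.18 (interval -0.12 to 0.48). Mcts2, an intronless copy of the translation factor gene Mcts1, had 189, 217 and 263 with UNC0638 and 183, 162 and 232 with DMSO. Its groups overlapped as well, at a log2 difference of 0.20 (interval -0.14 to 0.54). Mcts2 is a near copy of Mcts1, and whether its probes separate the genes was not tested, so its values are uncertain. Impact and Mcts2 are listed as read from the paternal copy.

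The Igf2r locus on chromosome 17 holds a textbook case of an antisense RNA that silences its host gene. Igf2r, the receptor that clears the growth factor IGF2 and sorts lysosomal enzymes, had 85.1, 98.6 and 124 on the UNC0638 arrays and 94.2, 105 and 89.4 on the DMSO arrays. The UNC0638 arrays lay on both sides of the DMSO arrays (log2 difference 0.07, interval -0.21 to 0.36). Airn, the paternally read RNA that starts within Igf2r, was silent at 22.5 ± 3.97 with UNC0638 and 22.8 ± 3.07 with DMSO (SD, n = 3 each, log2 difference -0.01). The organic cation transporter Slc22a2, which is imprinted in the placenta, was silent as well, at 34.1 ± 5.79 with UNC0638 and 30.4 ± 1.56 with DMSO (log2 difference 0.10). The pieces of Airn that overlap Igf2r cannot be told from Igf2r where probes do not separate the strands, which the sources used here do not state.

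On distal chromosome 7, the H19/Igf2 and Kcnq1 domains lie side by side and 7 of their genes were measured. Tssc4, a gene of spliceosome assembly, had 82.8, 90.1 and 129 on the UNC0638 arrays and 109, 106 and 119 on the DMSO arrays, overlapping groups with a log2 difference of -0.15 (interval -0.46 to 0.17). Igf2, the fetal growth factor, had 42.3, 41.2 and 45.4 with UNC0638 and 40.8, 46.2 and 57.7 with DMSO, at the edge of the silent class (log2 difference -0.12, interval -0.36 to 0.13). The Igf2 difference was -0.012 without DMSO 3 and -0.20 without DMSO 1. The potassium channel gene Kcnq1 was at 51.3 ± 2.53 with UNC0638 and 52.1 ± 2.11 with DMSO. The transporter gene Slc22a18 was at 57.2 ± 8.27 with UNC0638 and 55.9 ± 5.16 with DMSO, and the lipid transfer protein gene Osbpl5 at 65.0 ± 8.43 with UNC0638 and 61.2 ± 2.28 with DMSO (SD, n = 3 each). Their log2 differences were -0.02, 0.02 and 0.07 in that order. Phlda2, which restrains growth of the placenta, was silent and yet had groups that did not overlap, with 41.2, 47.1 and 42.2 on the UNC0638 arrays against 34.4, 38.2 and 38.5 on the DMSO arrays. Its log2 difference was 0.16 (interval -0.02 to 0.35, adjusted p = 0.462 from limma). Ascl2, a transcription factor of the trophoblast, was silent at 38.9 ± 5.32 with UNC0638 and 35.6 ± 3.80 with DMSO (SD, n = 3 each, log2 difference 0.09, and 0.012 without UNC0638 2).

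**Figure D4:**
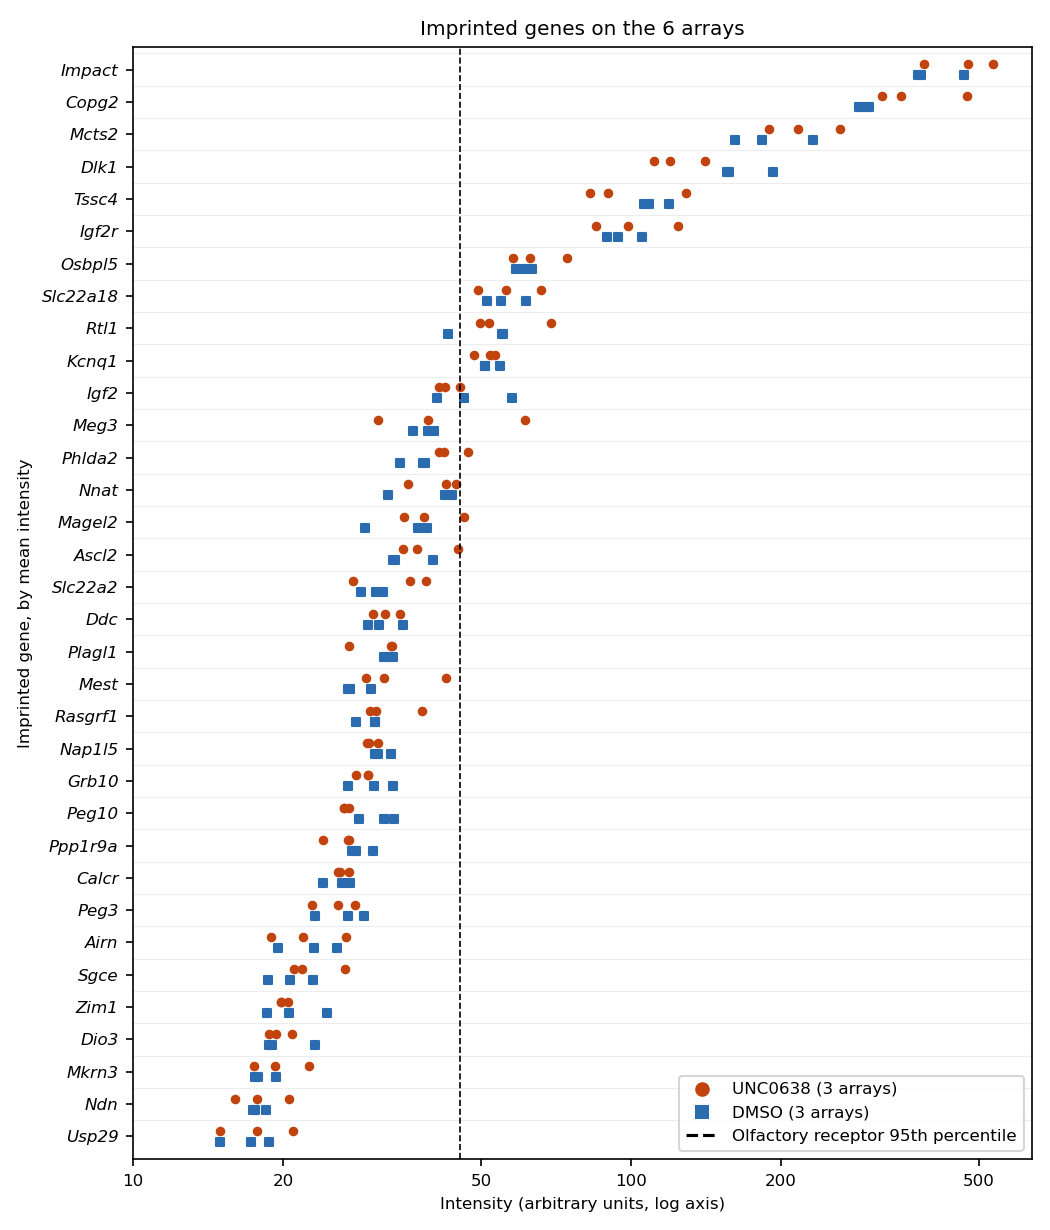
Intensity (log axis, arbitrary units) of the 34 imprinted genes on each of the 3 UNC0638 arrays (circles, upper in each row) and 3 DMSO arrays (squares, lower in each row), with the dashed line at the olfactory receptor 95th percentile of 45.3. Dlk1 has its 3 UNC0638 circles left of its DMSO squares and Copg2 has them to the right. Of the silent genes in the lower rows, Peg10 and Ppp1r9a also have their circles to the left and Phlda2 to the right.

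None of the 23 silent imprinted genes passed the limma test after UNC0638 (0 of 23, against 0.0886% of all silent genes), none had an unadjusted limma p under 0.05 (against 4.19% of all silent genes), and their median log2 difference was 0.017, beside 0.025 over all silent genes and 0.041 over the olfactory receptor genes. Differences ran from -0.15 for Peg10 to 0.19 for Mest, and 14 were above 0 and 9 below. Over all silent genes, 4896 were above 0 and 3003 below, a like tilt. The highest upper limit of their 95% intervals was 0.47, for Meg3. With 1 added in place of 16 the highest upper limit was 0.59, for Mest.

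In the Peg3 domain, Peg3, a paternally read zinc finger gene with a part in maternal behaviour in mice, was at 25.5 ± 2.54 with UNC0638 and 26.4 ± 2.98 with DMSO (SD, n = 3 each). Its neighbours, the zinc finger gene Zim1 and the ubiquitin protease gene Usp29, had log2 differences of -0.04 and 0.04. In the Prader-Willi domain, Ndn and Magel2 encode MAGE-family proteins and Mkrn3 a makorin zinc finger protein. Ndn was at 18.1 ± 2.28 with UNC0638 and 17.8 ± 0.569 with DMSO, Magel2 at 39.9 ± 5.72 and Mkrn3 at 19.8 ± 2.56 with UNC0638, and these last were at 35.2 ± 5.22 and 18.3 ± 1.00 with DMSO. The log2 differences of Ndn, Magel2 and Mkrn3 were 0.01, 0.13 and 0.06, with no upper limit above 0.38. That of Magel2 was 0.040 without DMSO 1 and 0.047 without UNC0638 2.

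In the Peg10-Sgce domain, Peg10 and Ppp1r9a were silent, and their UNC0638 arrays all lay below their DMSO arrays. Peg10, a placental gene derived from a retrotransposon, had 26.6, 27.1 and 26.5 on the UNC0638 arrays and 33.5, 31.9 and 28.5 on the DMSO arrays (log2 difference -0.15, interval -0.32 to 0.03, adjusted p = 0.509 from limma). Ppp1r9a, which encodes the actin-binding protein neurabin, had 27.0, 24.1 and 27.2 with UNC0638 and 30.3, 28.0 and 27.5 with DMSO (log2 difference -0.09, interval -0.26 to 0.09). Both genes lay within the range of the olfactory receptor genes, and the nearest UNC0638 and DMSO values of Ppp1r9a were 27.2 and 27.5. The sarcoglycan gene Sgce and the calcitonin receptor gene Calcr of the same domain had log2 differences of 0.09 and 0.02.

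Of the remaining silent genes, Grb10, an adaptor that dampens insulin and growth factor receptors, was at 29.1 ± 0.883 with UNC0638 and 30.2 ± 3.14 with DMSO (SD, n = 3 each). Its neighbour Ddc, the decarboxylase of dopamine and serotonin synthesis, had a log2 difference of 0.01. Plagl1, a zinc finger factor that restrains proliferation, was at -0.05, and Nap1l5, related to nucleosome assembly proteins, at -0.04. Nnat, the membrane protein neuronatin, was at 0.04, and Rasgrf1, an exchange factor for Ras, at 0.09. The intervals of these 6 genes lay between -0.23 and 0.30.

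Over the 34 genes, groups that did not overlap were found for 5. Copg2 and Phlda2 were higher with UNC0638 (2 of 34, against 9.59% of all genes), and Dlk1, Peg10 and Ppp1r9a lower (3 of 34, against 7.4% of all genes). In either direction this was 5 of 34 against 17% of all genes, 3 of 23 silent genes against 11.3% of all silent genes, and 2 of 11 expressed genes against 20.7% of all expressed genes. The test called 0 of the 11 expressed genes, against 1.05% of all expressed genes. An unadjusted limma p under 0.05 was reached by 2 of these 11, against 18.3% of all expressed genes. The shares of imprinted genes without overlap are near the background in each class.

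The genes were also grouped by the parental copy listed for each, which was not measured in these cells. The 20 listed as paternally read had a median log2 difference of 0.023, with 12 above 0 and 8 below. The 14 listed as maternally read had one of 0.043, with 9 above and 5 below. Signs of such small differences depend on how the arrays are scaled. The count above 0 was 15 of 34, with 19 below, under quantile normalization and again under median centring, which put the median of all genes at -0.014 and -0.034.

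UNC0638 3 was the highest of the 6 arrays for 11 of the 34 imprinted genes and for 6 of the 11 expressed ones, Impact, Copg2, Mcts2, Tssc4, Igf2r and Rtl1. Over all genes it was the highest array for 20.8%. It was also the lowest array for 8 of the 34, against 16.1% of all genes. UNC0638 2 was the highest for 10 of the 34 (22.1% of all genes) and UNC0638 1 for 0 (10.6% of all genes). The SD was larger on the UNC0638 than on the DMSO arrays for 23 of the 34 imprinted genes, 9 of the 11 expressed ones among them, and for 51.4% of all genes. Without UNC0638 3 the log2 differences were 0.076 for Impact and 0.081 for Mcts2, -0.31 for Tssc4 and -0.058 for Igf2r. For Impact and Mcts2, other arrays moved the value as far. Impact was at 0.30 without UNC0638 1, and Mcts2 at 0.33 without DMSO 3, 0.30 without UNC0638 1 and 0.092 without DMSO 2. Tssc4 was at -0.037 and Igf2r at 0.18 without UNC0638 1. Tssc4, Igf2r, Copg2 and Rtl1 each moved furthest without UNC0638 3. With each array left out in turn, none of the 34 genes passed the test.

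Of 40 further imprinted genes measured outside the 41, 0 passed the limma test over all genes and 3 had an unadjusted p below 0.05, Ampd3, Casd1 and Qpct, all with higher means after UNC0638. This is 3 of 40, against 12.7% of all genes, and 3 of the 28 expressed among them, against 18.3% of expressed genes. For counts this small, both are near the background. Ampd3, an AMP deaminase, had 66.9, 78.0 and 85.8 on the UNC0638 arrays and 60.1, 43.9 and 51.8 on the DMSO arrays. Its groups did not overlap, and its log2 difference was 0.45 (interval 0.19 to 0.72, adjusted p = 0.136 from limma). Over the 40 genes, groups did not overlap for 3 higher with UNC0638, Ampd3 and Casd1 among them (against 9.59% of all genes). The count lower without overlap was 0 (against 7.4% of all genes). Casd1, a sialic acid acetyltransferase gene of the Peg10-Sgce domain, had 519, 457 and 559 with UNC0638 and 421, 294 and 398 with DMSO (log2 difference 0.46, adjusted p = 0.206 from limma). Qpct, a glutaminyl cyclase, was at 103 ± 19.6 with UNC0638 and 73.1 ± 19.4 with DMSO (SD, n = 3 each, log2 difference 0.42, adjusted p = 0.353 from limma). The groups of Qpct overlapped.

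Of 33 genes that set, keep or read imprints, 0 passed the test. An unadjusted limma p below 0.05 was reached by 6, all of them expressed (6 of 33, against 12.7% of all genes, and 6 of 28 expressed, against 18.3% of expressed genes), which is near the background. Of the 6, 4 were lower and 2 higher with UNC0638. The 3 with the lowest p were lower after UNC0638 in mean, with groups that did not overlap. Hells, a chromatin remodeller needed for DNA methylation of repeats, had 423, 424 and 466 on the UNC0638 arrays and 599.5, 529 and 638 on the DMSO arrays (log2 difference -0.41, interval -0.63 to -0.20, adjusted p = 0.105 from limma). Uhrf1, which brings the maintenance DNA methyltransferase to newly copied DNA, had 808, 707 and 813 with UNC0638 and 1011, 974 and 912 with DMSO (log2 difference -0.31, adjusted p = 0.177 from limma). Setdb1, the H3K9 methyltransferase that works with ZFP57 and TRIM28 at imprints, was at 286 ± 19.2 with UNC0638 and 369 ± 33.5 with DMSO (SD, n = 3 each, adjusted p = 0.154 from limma). Dnmt1, the maintenance enzyme itself, was at 1565 ± 111 with UNC0638 and 1507 ± 89.3 with DMSO (log2 difference 0.05), and Zfp57 had 119, 115 and 111 with UNC0638 and 111, 117 and 114 with DMSO (0.01). The gene of G9a, Ehmt2, had 98.7, 99.8 and 103 on the UNC0638 arrays and 112, 137 and 119 on the DMSO arrays (adjusted p = 0.293 from limma). Its RNA level is no measure of the enzyme activity that UNC0638 inhibits. Both genes in the other direction had groups that did not overlap. Over the 33 regulators, groups did not overlap for 3 higher with UNC0638 (against 9.59% of all genes). They did not overlap for 7 lower, Hells, Uhrf1, Setdb1, Ehmt2, Trim28, Cbx5 and Rbbp4 (against 7.4% of all genes). All of these were among the 28 expressed regulators. Of all 12038 expressed genes, 1233 were higher and 1259 lower without overlap. The share of regulators lower without overlap was above that of all genes and that of expressed genes. The counts are small, and this excess was not tested. Zfp445, a zinc finger protein that keeps imprints, had the largest difference of the 33, with 219, 219 and 283 on the UNC0638 arrays and 145, 203 and 173 on the DMSO arrays (log2 difference 0.44, interval 0.12 to 0.75, adjusted p = 0.225 from limma). Arid4a, a chromatin protein with a part in imprinting of the Prader-Willi domain in mice, had 714, 610.5 and 771 with UNC0638 and 595, 583 and 594 with DMSO (log2 difference 0.23, adjusted p = 0.369 from limma).

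Median intensities were 52.7 to 54.9 on the UNC0638 arrays and 50.4 to 52.5 on the DMSO arrays, and the number of arrays limits the precision. All 8 markers of haematopoietic progenitors and myeloid cells were above the silent line. Among them Itgam, at 1405 ± 5.08 with UNC0638 and 1018 ± 100 with DMSO (SD, n = 3 each), had the lowest adjusted p of all markers (0.0709 from limma). Its log2 difference was 0.46. Those of Cd34, Ptprc, Spi1, Mpo and Kit were 0.27, 0.25, 0.19, 0.07 and 0.03, and those of Elane and Prtn3 were -0.04 and -0.16. All 5 neuronal markers were below the silent line, while 6 of 9 fibroblast and stromal markers were above, of which Thy1 is also found on blood cells and the other 5 had means of 50.9 to 104. All 3 megakaryocyte markers were above the line, with a summed intensity of 591 to 803 on the UNC0638 arrays and 809.5 to 1053 on the DMSO arrays. The sum follows Pf4, at 427 ± 103 with UNC0638 and 679 ± 137 with DMSO (SD, n = 3 each), while Itga2b and Gp9 had log2 differences of 0.21 and 0.03. Of the markers measured, 1 of 2 erythroid, 1 of 3 B cell and 1 of 3 T cell genes were above it. No marker passed the test, and the part of other cell types in the results was not tested.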

How the data were processed

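The labels' protocols state that Trizol RNA was made into biotinylated cRNA from 6 ug of total RNA and measured on Affymetrix arrays. The authors deposited 1 processed intensity per probe set and array, on a linear scale from 2.74 to 19527. The background correction, summarisation and scaling behind them are unknown from the labels, and such steps can shrink differences of dim probe sets. Of 34760 probe sets, 21640 carry 1 gene symbol, 1321 several and 11799 none. Symbols were checked through Entrez numbers in a GRCm38.p6 gene table (21553 found, 0 changed). The probe set with the highest mean was kept per gene, which gave 19937 genes. Values were taken as log2(intensity + 16) and tested with limma 3.58.1 in R 4.3.3 (lmFit and eBayes, group as the sole term). P-values were adjusted by Benjamini-Hochberg across the 19937 genes, and 0.05 was the threshold. The procedure was tested on simulated data. Intervals are limma's 95% intervals, each for its gene alone.

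The rule named all measured members, then from the further imprinted genes and the regulators those past the threshold, or the 3 with the lowest p. Dnmt1, Zfp57, Zfp445, Arid4a, Ehmt2, Trim28, Cbx5 and Rbbp4, and the promoters shown, were chosen after their values were seen. Members, lists and tests were chosen with earlier results of these data known. The labels number arrays 1 to 3 in both groups but do not say that numbers mark a shared culture. Alternatives were 2 other scalings, pseudocounts of 1 and 64, leaving out the dimmest 40% of genes, other uses of probe sets, a trended robust prior, array weights, a stricter threshold of 0.01, a block on replicate number, and each array left out in turn. Figures were drawn with matplotlib 3.10.9.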

Additional observations from a re-analysis of the deposited data

How the results depend on the processing

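Under the 17 alternatives no imprinted gene, further imprinted gene or regulator that was tested passed the limma test. Leaving out the dimmest 40% of genes kept 10 of the 34 imprinted genes, 28 of the 40 further ones and 28 of the 33 regulators, so the silent genes and Igf2 were not tested there. The lowest adjusted p of any of the 34 under any alternative was 0.116, for Dlk1 with the replicate block. That block gave 0 calls for the 34 genes (73 over all genes), and the count over all genes was 134 without it. Deviations of same-numbered arrays correlated at -0.066, 0.11 and 0.017, and 1 of 3 UNC0638 arrays correlated best with its own number. Over all genes the count was also 49 with a pseudocount of 64, 18 at a threshold of 0.01 and 10 to 69 with 1 array left out, the lowest without UNC0638 1. Median centring moved the split of calls over all genes to 50 higher and 65 lower, beside 74 and 60 as deposited. Signs turned for 17 of the 34 genes in at least 1 alternative, whose differences as reported ran from -0.05 for Plagl1 to 0.11 for Rtl1, and held for the other 17. Under quantile normalization they turned for Slc22a18 (-0.022), Usp29 (-0.0018), Calcr (-0.027), Ddc (-0.035), Ndn (-0.027) and Nnat (-0.0065), under median centring for Slc22a18 (-0.024), Usp29 (-0.010), Calcr (-0.029), Ddc (-0.035), Ndn (-0.036) and Nnat (-0.0065), and with array weights for Ndn (-0.0042). With each array left out in turn, signs turned within the ranges of Kcnq1 (-0.040 to 0.013), Slc22a18 (-0.063 to 0.099), Osbpl5 (-0.016 to 0.13), Meg3 (-0.10 to 0.26), Rtl1 (-0.0031 to 0.18), Dio3 (-0.055 to 0.030), Peg3 (-0.087 to 0.016), Zim1 (-0.094 to 0.020), Usp29 (-0.029 to 0.10), Calcr (-0.015 to 0.042), Plagl1 (-0.079 to 0.016), Ddc (-0.023 to 0.054), Grb10 (-0.085 to 0.013), Ndn (-0.041 to 0.055), Igf2r (-0.058 to 0.18), Airn (-0.088 to 0.059) and Nnat (-0.055 to 0.11). The cause was not tested. The number of silent genes was 23, or 28 under either other line. For silent genes the intervals bound a change in signal, and smaller changes are neither shown nor excluded.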
